A study of Nothobranchius furzeri with 20 samples.

Results

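The 100 genes that took the most reads in the brain of the turquoise killifish, Nothobranchius furzeri, were picked from 26739 gene identifiers by their mean CPM over 20 libraries, CPM being 1e+06 times a gene's read count over the summed counts of its library. The libraries were made from brains of males of the GRZ strain aged 5, 7, 10 or 14 weeks, and each age has 5 of them. The labels name no other genotype and no treatment. Whether a library holds 1 brain or a pool is not stated in the labels. Each p-value sets a difference between ages against the spread between these libraries, which may be that of single brains or of pools. Genes are called here by their rank in mean CPM, rank 1 having the highest, because the files give identifiers without names. The table of gene names at hand, of assembly NfurGRZ-RIMD1, held 0 of the 26739 identifiers.

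GRZ is an inbred laboratory strain from a fish of seasonal ponds, known for its short life. In vertebrate brain the most abundant transcripts commonly include those for ribosomal proteins and translation factors, for tubulins and actins of the cytoskeleton, for enzymes of energy supply and for proteins of synapses and myelin. The share of a library that one transcript takes is relative, so a gain for one lowers the shares of the others. None of the 100 genes could be assigned to these classes or to a cell type, and the brain origin of the libraries could not be checked on markers. In bulk tissue, fewer cells of a type and less RNA per cell cannot be told apart.

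Total counts per library lay between 12.004 and 30.7 M (M, mega) with a median of 21.6 M, and the lowest count of any of the 100 genes in any library was 417. Counting error was therefore small beside the spread between libraries. The 95% Wilson interval of the 100 genes' share was 12.14% to 12.17% in the library with the lowest share and 15.78% to 15.81% in the one with the highest. Wilson intervals cover counting error alone, since the reads carry no molecular identifiers. All 100 genes passed the filter on low counts, and 19474 genes were tested. In 3 libraries the profile over all tested genes stood apart: Spearman's rho with each other library had a median of 0.925 in 7-week replicate 3, 0.955 in 5-week replicate 5 and 0.955 in 5-week replicate 4. The next lowest value was 0.970 and the median 0.981. Results that rest on these 3 libraries are given with and without them.

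The rule ranks genes by reads, which grow with transcript length as well as with the number of transcripts. The mean CPM of the 100 genes chose them and is given as a description. Rank 1 took 0.685% of the counts of an average library, the first 10 genes 3.46%, the first 20 genes 5.37%, the first 50 genes 9.14% and all 100 genes 13.4%. The curve was flat beyond the first few genes: 30 of the 100 genes held 50% of the counts of all 100, and 55 had a mean of 1000 CPM or more. The first 200 genes took 19.4%, the first 500 genes 30.9% and the first 1000 genes 42.8%. In single libraries, 1162 to 1466 genes were needed to make up 50% of the counts. At the edge of the list, ranks 96 to 100 had mean CPM of 721, 719.7, 716, 714 and 708, and the 5 genes next below the list had 707, 706, 706, 705 and 702. The step across the edge was thus smaller than the spread of any 1 of these genes between libraries.

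**Figure D1:**
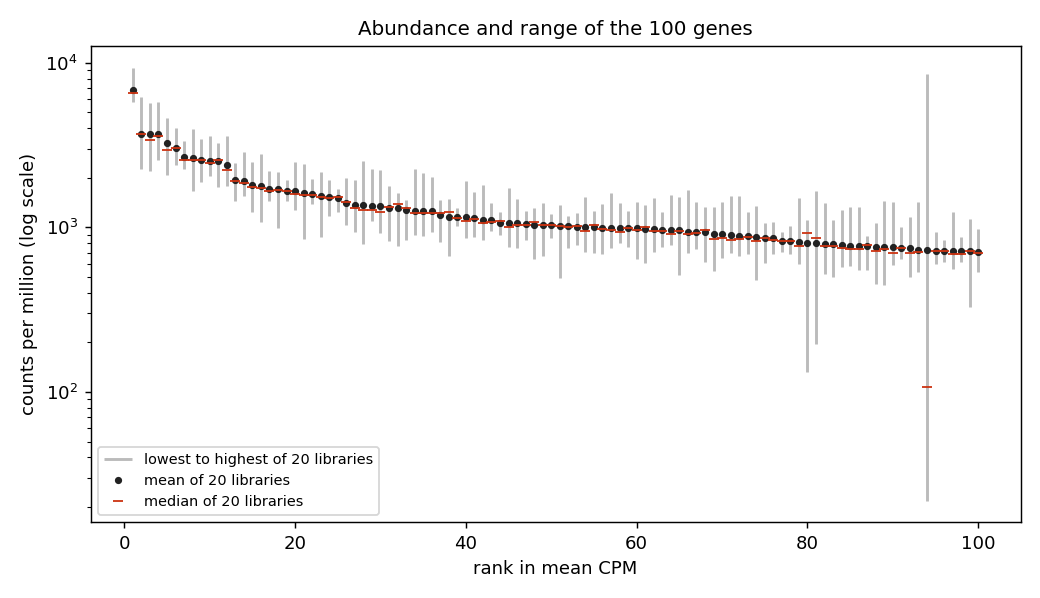
CPM (log scale) of the 100 genes against their rank in mean CPM. Dots are the means and red dashes the medians of 20 libraries, and grey lines run from the lowest to the highest library. Rank 94 has a mean of 729.9 CPM and a median of 107 CPM, and its line is by far the longest.

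Much of the list recurred from library to library. Of the 100 genes, 48 were among the 100 of highest CPM in every library, 58 in at least 19 libraries and 79 in at least 15, while 12 were there in 10 libraries or fewer. All but 10 stayed within the first 200 genes of every library. A library's own 100 of highest CPM shared 71 to 92 genes with the list, with a median of 87, and the lowest figure was that of 7-week replicate 3. In all, 193 genes entered the first 100 of at least 1 library. Ranking by age means gave lists that held 90, 97, 92 and 92 of the 100 genes at 5, 7, 10 and 14 weeks, and 80 genes were in all 4 lists. Ranking without the 3 libraries kept 94 of the 100 genes, and ranking by the median of 20 libraries kept 95.

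Ranked per length, the list changed more. TPM values, reads per base of gene length scaled to the same total in every library, were computed with the gene lengths that the deposited RPKM values imply, and 43 of the 100 genes were also among the 100 of highest mean TPM, or 85 among the 500 of highest TPM. The highest mean TPM of all genes was that of rank 28, with 7696 TPM over a gene length of 387 bases. Rank 1 was at place 3, with 6463 TPM over 2314 bases. Ranks 69, 60 and 65 followed with 5611, 5470.4 and 5217 TPM, over lengths of 354, 393 and 399 bases. At the other end rank 51, with the longest gene length of the list at 26901 bases, had 84.3 TPM and stood at place 1961 of all genes. Place 2 in TPM was held by a gene model of 24 bases and place 10 by one of 23 bases. Of the lengths, 44 of 100 in the list and 51.8% over all tested genes were multiples of 3. Whether they hold the untranslated parts is therefore not known for many genes, which limits these TPM places. The lengths of ranks 28, 69, 60 and 65 are all multiples of 3, so this limit holds for their places. Lengths ran from 354 to 26901 bases with a median of 2966.5. Against the tested genes, the 100 held a similar share of genes under 1000 bases, 18% against 17.4%, and a larger share over 10000 bases, 10% against 2.81%, both given as descriptions. The next 900 genes in rank were longer, with a median of 5193 bases, 9.56% under 1000 bases and 16.1% over 10000.

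The share of counts in the 100 genes had its highest mean at 5 weeks. It was 13.4, 13.5, 13.7, 15.6 and 14.4% in the 5 libraries of 5 weeks, 12.9, 13.2, 15.8, 12.2 and 12.6% at 7 weeks, 13.3, 13.2, 12.7, 13.01 and 13.5% at 10 weeks and 13.1, 12.5, 12.6, 13.2 and 14.3% at 14 weeks. Every age reached into the range of the others, and the highest values, 15.8% and 15.6%, were those of 7-week replicate 3 and 5-week replicate 4. The 7-week values reached those of 5 weeks through 7-week replicate 3 alone, since the other 4 libraries of 7 weeks (12.2 to 13.2%) lay below all of 5 weeks (13.4 to 15.6%). The means were 14.1% ± 0.929, 13.3% ± 1.43, 13.2% ± 0.302 and 13.2% ± 0.733 at 5, 7, 10 and 14 weeks (SD, n = 5 each). Leaving the 3 libraries out gave means of 13.5% ± 0.154 at 5 weeks (SD, n = 3) and 12.7% ± 0.446 at 7 weeks (SD, n = 4), so the mean of 7 weeks came below that of 10 weeks. The means of the 4 ages lay within 1 percentage point of one another, while single libraries ran from 12.2% to 15.8%. No test was made on the share, since it sums over genes chosen from these libraries.

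The first 10 genes took 3.75% ± 0.254, 3.24% ± 0.298, 3.41% ± 0.0905 and 3.44% ± 0.323 at 5, 7, 10 and 14 weeks (SD, n = 5 each). With the 3 libraries left out, their share was 3.57% at 5 weeks and 3.11% at 7 weeks, and the highest such library of 7 weeks (3.21%) lay below the lowest of 5 weeks (3.52%). With all 20 libraries, those of 10 weeks had the smallest SD in both shares. With the 3 left out, those of 5 weeks had a smaller one, 0.154 for all 100 genes and 0.0433 for the first 10 (n = 3). Leaving rank 94 out of the 100 moved the mean shares to 13.9%, 13.2%, 13.1% and 13.2% at 5, 7, 10 and 14 weeks, because this gene was very high in 1 library of 5 weeks and 1 of 7 weeks.

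**Figure D2:**
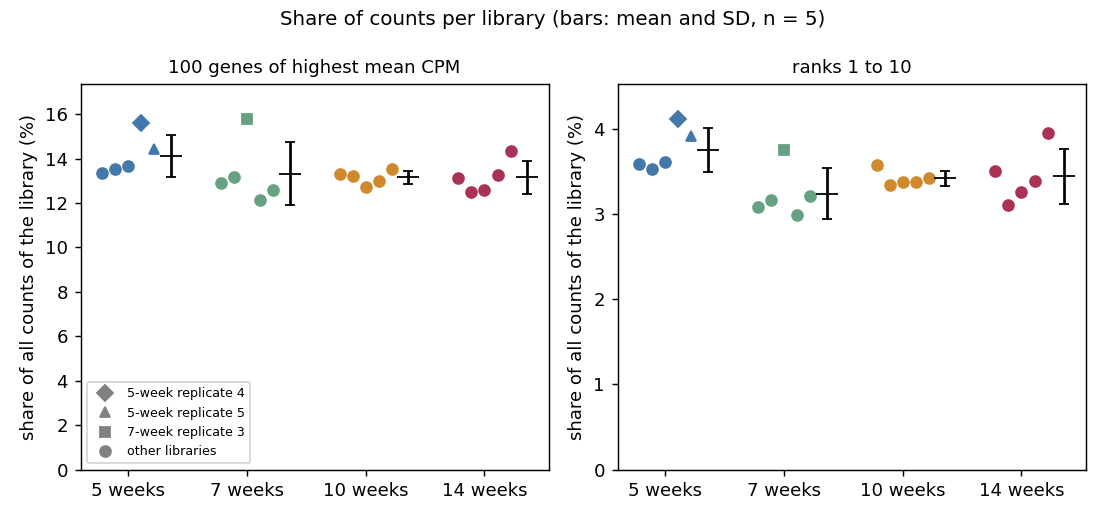
Share of all counts of a library (%) taken by all 100 genes and by the first 10, by age in weeks. Points are libraries, bars the mean and SD of 5, and the 3 libraries of lowest rho are marked. The shares at 7 weeks reach those of 5 weeks through 7-week replicate 3 alone, and 7-week replicate 3 and 5-week replicate 4 stand highest in the share of all 100 genes.

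Rank 1 was the first gene in 20 of 20 libraries. It had 6543, 7112, 7343, 9333 and 7448 CPM at 5 weeks, 6145, 6201, 8215, 6154 and 6026 CPM at 7 weeks, 6065, 7105, 6311, 6545 and 6866 CPM at 10 weeks, and 6319, 6403, 5795, 7175 and 7887 CPM at 14 weeks. Its highest values were those of 5-week replicate 4 and 7-week replicate 3, and the ages overlapped. At 14 weeks it averaged 6716 ± 819 CPM and at 5 weeks 7556 ± 1054 CPM (SD, n = 5 each), a log2 fold change of -0.17 ± 0.13 (standard error) that did not pass edgeR's test (adjusted p = 0.535). Below it the order was looser: ranks 1 and 4 were the 2 of the first 10 genes that were in the first 10 of every library, and ranks 2, 3, 4 and 5 each stood second in at least 1 library. Rank 8 stood at place 28 in 1 library. Ranks 6 and 7 had small differences, with log2 fold changes at 14 against 5 weeks of 0.04 and 0.09 and coefficients of variation (CV, SD over mean) over 20 libraries of 10.7% and 11.6%. Ranks 4 and 10 had lower means at each older age, rank 10 with 2999 ± 428, 2461 ± 238, 2419.9 ± 215 and 2289 ± 139 CPM at 5, 7, 10 and 14 weeks. With all 20 libraries, ranks 2 and 3 had their lowest means at 10 weeks, rank 2 with 4779.6 ± 986, 3205 ± 783, 3085 ± 871 and 3752 ± 755 CPM at the same ages. With the 3 libraries left out, the log2 fold change at 10 against 7 weeks was 0.09 for rank 2 (adjusted p = 0.832 by edgeR) and 0.07 for rank 3 (adjusted p = 0.865), so the fitted level of 10 weeks was then not the lowest, though these differences did not pass the test. No difference of rank 2 or rank 10 passed the test with all 20 libraries. When the 3 libraries were left out, rank 10 was lower at 14 than at 5 weeks, with a log2 fold change of -0.42 (adjusted p = 0.0121 by edgeR), and at 10 than at 5 weeks, with -0.31 (adjusted p = 0.0303).

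Age differences were tested with edgeR's quasi-likelihood test on all 19474 genes, with p-values adjusted over all of them by the Benjamini-Hochberg method, and a gene was called at an adjusted p under 0.05. Whether ages overlap is stated in CPM, without the TMM scaling of libraries that the test uses. The TMM factor was 1.15 in 5-week replicate 5 and 0.947 to 1.01 in the others. Values of 5-week replicate 5 therefore stand lower in the test than in CPM. Overlap on the scale of the test is not given. The rule that chose the 100 genes used the mean over all ages and not a difference between them, though a gene high at 1 age was more likely to enter the list. In all, 13 of the 100 genes were called in at least 1 of the 6 pairs of ages, and 14 in any test. The share of all tested genes called in at least 1 pair or in any test is not given. These counts therefore do not show whether the 100 genes were called more or less often than other genes. The pairs share libraries, as 14 against 5 weeks and 10 against 5 weeks share those of 5 weeks, so their counts are not independent. Leaving libraries out also moved the share of all tested genes called, from 5.97% to 11.05% between 10 and 5 weeks without the 3 libraries of lowest rho. For fits without a single library this share is not given, so their counts cannot be read as a trait of the 100.

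Between 14 and 5 weeks, 5 of the 100 genes fell and 1 rose. The 5 that fell were ranks 28, 69, 4, 82 and 60, and the 1 that rose was rank 99. Of all tested genes, 2.48% were called in this comparison, 1.47% as lower and 1.0% as higher, and 24 of the next 900 genes in rank. At an unadjusted p under 0.05, 23 of the 100 genes and 18.6% of all tested genes passed. The median log2 fold change was 0.00 over the 100 genes and 0.00 over all tested genes, and the median of its size 0.16 over the 100 genes and 0.19 over all tested. All libraries of 14 weeks lay below all of 5 weeks for 11 of the 100 genes (3.49% of all tested genes) and above for 1 (1.68%). The count of 6 called genes became 1 with 5-week replicate 4, 14-week replicate 1 or 14-week replicate 4 left out, 2 with 14-week replicate 3 left out, and 12 with 7-week replicate 3 left out. With all 3 libraries of lowest rho left out it was 9, all lower, against 6.15% of all tested genes, and 4 of the 9 were among the 6. No such share is given for the single libraries left out.

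The largest called difference was that of rank 28 (Nfu_g_1_016795), also the gene of highest mean TPM, with the limit of its length given above. It had 1556, 1922, 1533, 2526 and 1784 CPM at 5 weeks, 1745, 1346, 1150.0, 1297 and 1243 CPM at 7 weeks, 1098, 1327, 1128, 1080.0 and 2095 CPM at 10 weeks, and 838, 788, 866, 1011 and 979.6 CPM at 14 weeks. All libraries of 14 weeks lay below all libraries of every other age, and 10-week replicate 5 lay above the other 10-week libraries. It averaged 897 ± 95.1 CPM at 14 weeks and 1864 ± 404 CPM at 5 weeks (SD, n = 5 each), and its log2 fold change was -1.06 ± 0.19 (adjusted p = 0.00988 by edgeR). Leaving out the 3 libraries, it was -0.93 (adjusted p = 0.00794). The call held when each library was left out in turn, with adjusted p of 0.00335 to 0.0317. Against 7 weeks its log2 fold change at 14 weeks was -0.62 ± 0.19 (adjusted p = 0.0808) with all libraries and -0.68 (adjusted p = 0.0200) without the 3.

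Rank 69 (Nfu_g_1_022449), also a short gene with 354 bases, had 1057, 1279, 886, 1326 and 1321 CPM at 5 weeks, 937, 972, 1147, 819 and 823 CPM at 7 weeks, 733, 1033, 624, 723 and 1233 CPM at 10 weeks, and 647, 544, 720.4, 706 and 725 CPM at 14 weeks. Its 14-week libraries lay below all those of 5 and 7 weeks and overlapped with those of 10 weeks. At 14 weeks it averaged 669 ± 76.1 CPM and at 5 weeks 1174 ± 195 CPM (SD, n = 5 each), with a log2 fold change of -0.80 ± 0.17 (adjusted p = 0.0240 by edgeR) and -0.72 (adjusted p = 0.0254) without the 3 libraries. The call was lost without 5-week replicate 4, 14-week replicate 1 or 14-week replicate 4, with adjusted p of 0.0584 to 0.0646.

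Rank 4 took the most reads of the genes that fell by 14 weeks. It had 2559, 2890.0, 2669, 2673 and 3553 CPM at 14 weeks, against 4896, 5476, 3829.5, 5755 and 4119.8 CPM at 5 weeks. The 2 ages did not overlap. Its log2 fold change was -0.75 ± 0.16 (adjusted p = 0.0267 by edgeR) and -0.76 (adjusted p = 0.00801) without the 3 libraries. This call was lost without 5-week replicate 4 or 14-week replicates 1, 3 or 4, with adjusted p of 0.0646 to 0.0754. At 7 and 10 weeks it averaged 3517 ± 477 and 3486 ± 713 CPM (SD, n = 5 each), between the 2 outer ages.

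Rank 82 had 519, 595, 611, 590.1 and 682 CPM at 14 weeks, against 825, 1037, 802, 1395 and 1091 CPM at 5 weeks. The ages did not overlap, and the highest value was that of 5-week replicate 4. Its log2 fold change was -0.78 ± 0.18 (adjusted p = 0.0324 by edgeR), but without the 3 libraries it was -0.60 with an adjusted p of 0.0508, which missed the threshold. It was lost too without 5-week replicate 4 or 14-week replicates 1, 3 or 4 alone (adjusted p of 0.0679 to 0.0850).

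Rank 60 had 681, 639.6, 687, 822 and 886 CPM at 14 weeks, against 1103, 1213, 856, 1050.3 and 1434 CPM at 5 weeks. These ages overlapped through 14-week replicate 5 and 5-week replicate 3. Its log2 fold change was -0.59 ± 0.14 (adjusted p = 0.0329 by edgeR) and -0.54 (adjusted p = 0.0261) without the 3 libraries. Leaving out 5-week replicates 1, 2 or 4 or 14-week replicates 1, 2, 3 or 4 ended this call, with adjusted p of 0.0534 to 0.0850, and so did a fit of the 2 ages alone (adjusted p = 0.0605). At 10 weeks it averaged 1096 ± 173 CPM, and its log2 fold change at 14 against 10 weeks was -0.58 ± 0.14 (adjusted p = 0.132) with all libraries and -0.58 (adjusted p = 0.0327) without the 3. No library of 14 weeks reached the lowest of 10 weeks.

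The gene that rose, rank 99 (Nfu_g_1_022814), was among the longest of the list with 12562 bases. It had 524, 557, 641, 329 and 477 CPM at 5 weeks, 668, 595, 419.7, 815 and 771 CPM at 7 weeks, 785, 805, 922, 826 and 784 CPM at 10 weeks, and 903, 1119, 1092, 665 and 591 CPM at 14 weeks. Its 14-week libraries ran from 591 CPM to the highest value of all, 1119 CPM. They overlapped with 5 weeks only through 14-week replicate 5 and 5-week replicate 3. It averaged 874 ± 241 CPM at 14 weeks and 505 ± 116 CPM at 5 weeks (SD, n = 5 each), a log2 fold change of 0.80 ± 0.20 (adjusted p = 0.0401 by edgeR). Its lowest value was that of 5-week replicate 4, and without the 3 libraries the log2 fold change was 0.57 (adjusted p = 0.0695), which no longer passed. Leaving out 5-week replicates 1, 2, 4 or 5, 10-week replicates 1 or 2, or 14-week replicates 1, 2, 3 or 4 also ended the call (adjusted p of 0.0528 to 0.0998), as did a fit of the 2 ages alone (adjusted p = 0.0868).

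Of the genes called between 14 and 5 weeks, 4 of the 5 that fell were among the shorter 50 of the list and the 1 that rose among the longer 50. Of the 5 genes under 400 bases, ranks 28, 60 and 69 fell, while rank 65 had a log2 fold change of -0.40 (adjusted p = 0.289 by edgeR) and rank 92 one of 0.04 (adjusted p = 0.949). Over the shorter 50 genes the median log2 fold change was -0.02 and over the longer 50 it was 0.03. A part of length in these calls was not tested.

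**Figure D3:**
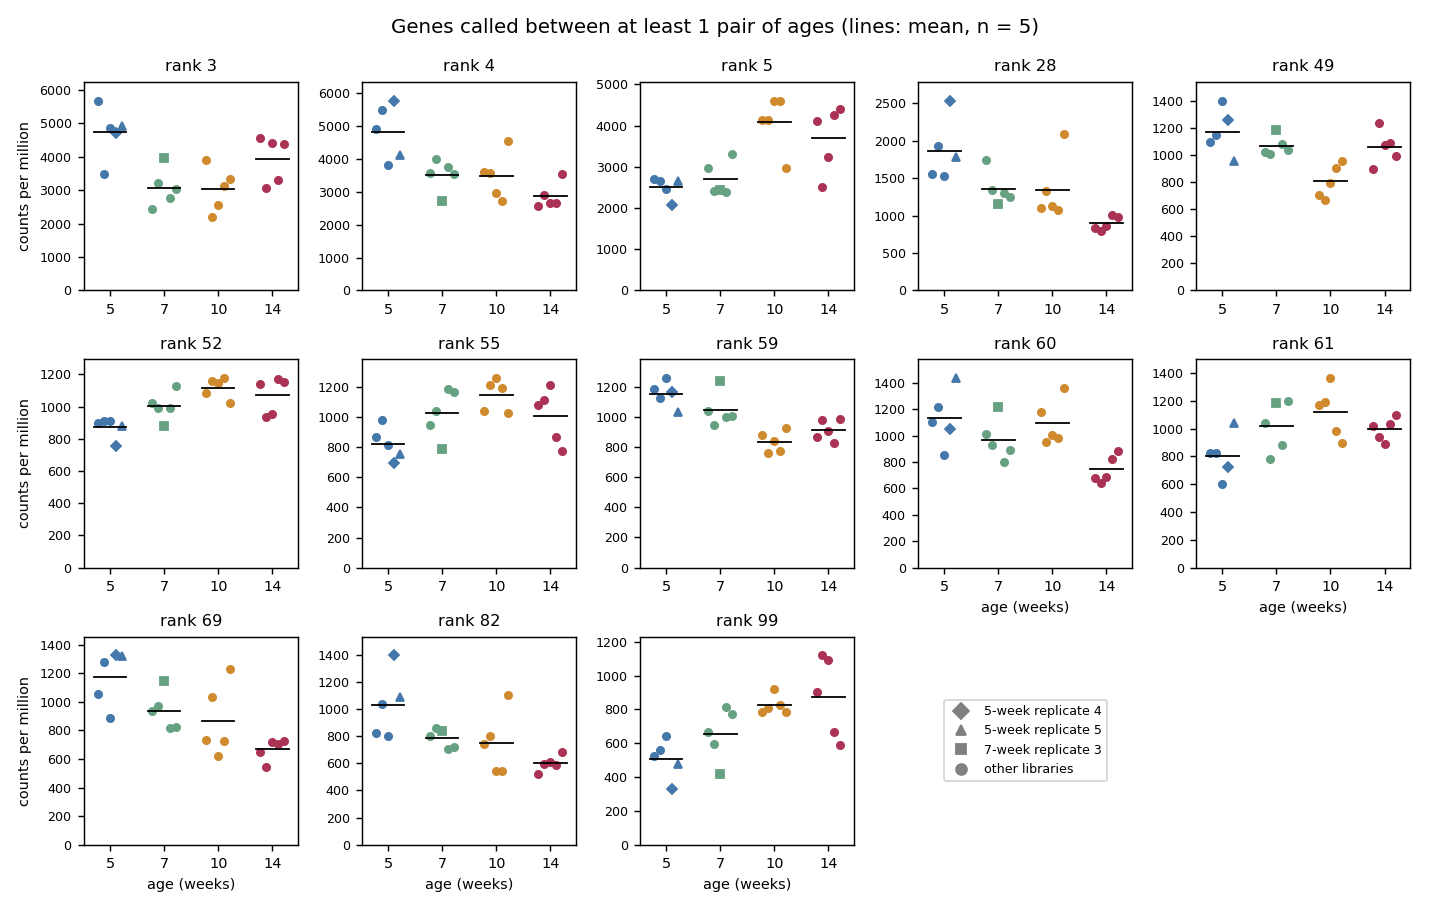
CPM of the 13 genes called in at least 1 pair of ages, a panel each, against age in weeks. Points are libraries, horizontal lines the mean of 5, and the 3 libraries of lowest rho are marked. Rank 28 is lower at 14 weeks than in any library of another age, and rank 5 is higher in every library of 10 weeks than in any of 5 weeks.

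Between 10 and 5 weeks, 5 of the 100 genes rose and 3 fell: ranks 5, 52, 61, 99 and 55 were higher and ranks 59, 49 and 3 lower. Of all tested genes 5.97% were called, 2.13% as higher and 3.85% as lower, and 64 of the next 900 genes in rank. At an unadjusted p under 0.05, 31 of the 100 genes and 23.3% of all tested genes passed. All 10-week libraries lay above all 5-week libraries for 7 of the 100 genes (5.24% of all tested genes) and below for 8 (5.67%). The count of 8 called genes was thus near the share over all tested genes.

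The largest rises, those of ranks 5 and 99, were near equal, with log2 fold changes of 0.740 and 0.739. Rank 5 (Nfu_g_1_008211) took the most reads of the genes that rose. It had 2698, 2646, 2461, 2073 and 2654 CPM at 5 weeks, 2966, 2407, 2436, 2398 and 3306 CPM at 7 weeks, 4136, 4132, 4587, 4591 and 2969.6 CPM at 10 weeks, and 4117, 2502, 3238, 4263 and 4412 CPM at 14 weeks. Every 10-week library lay above every 5-week library, and 10-week replicate 5 was the lowest of its age. At 14 weeks, replicate 2 lay within the range of 5 weeks and the other 4 above it. The mean was 4083 ± 663 CPM at 10 weeks and 2507 ± 259 CPM at 5 weeks (SD, n = 5 each), with a log2 fold change of 0.74 ± 0.16 (adjusted p = 0.0130 by edgeR) and 0.64 (adjusted p = 0.0304) without the 3 libraries. No single library left out ended this call (adjusted p of 0.00620 to 0.0466). At 14 against 5 weeks its log2 fold change was 0.58 ± 0.16 (adjusted p = 0.0550), which missed the threshold.

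Rank 52 had 1084, 1161, 1149, 1176 and 1022 CPM at 10 weeks, against 900.4, 911, 911, 754 and 881 CPM at 5 weeks. The ages did not overlap, and 5-week replicate 4 was lowest. Its log2 fold change was 0.39 ± 0.10 (adjusted p = 0.0271 by edgeR) with all libraries and 0.29 (adjusted p = 0.0548) without the 3. Rank 55 had 1041, 1217, 1260.3, 1197 and 1027 CPM at 10 weeks, against 872, 982, 814, 695 and 754 CPM at 5 weeks. It too did not overlap, with a log2 fold change of 0.51 ± 0.14 (adjusted p = 0.0408) with all libraries and 0.36 (adjusted p = 0.102) without the 3. Rank 61 had 1168, 1190.0, 1361, 983 and 897 CPM at 10 weeks, against 823, 825, 603, 726 and 1038 CPM at 5 weeks. Here the ages overlapped through 5-week replicate 5, and the log2 fold change of 0.52 ± 0.14 (adjusted p = 0.0317) was 0.57 (adjusted p = 0.0239) without the 3 libraries. Scaling by library totals alone ended the call of rank 61 (adjusted p = 0.0582). For rank 99, given above by library, the log2 fold change was 0.74 ± 0.20 (adjusted p = 0.0358) with all libraries and 0.51 (adjusted p = 0.0758) without the 3. So 2 of the 5 rises, those of ranks 5 and 61, passed without the 3 libraries. Of the 5 genes that rose, 4 were among the longer 50 of the list, and of the 3 that fell, 2 among the shorter 50. The median log2 fold change was -0.003 over the shorter 50 and 0.07 over the longer 50. Whether length had a part in these calls was not tested.

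Of the genes that fell, rank 59 had 879, 762, 837, 774 and 924 CPM at 10 weeks, against 1186, 1127, 1256, 1168 and 1036 CPM at 5 weeks. In CPM the ages did not overlap, but the lowest 5-week value was that of replicate 5, which the test's scaling lowers. Its log2 fold change was -0.44 ± 0.10 (adjusted p = 0.0199 by edgeR) and -0.53 (adjusted p = 0.00123) without the 3 libraries. Rank 49 had 706, 670.1, 798, 904 and 961 CPM at 10 weeks, against 1103, 1151, 1401, 1261 and 962 CPM at 5 weeks. In CPM the highest 10-week value lay just under the lowest of 5 weeks, that of replicate 5, which the test's scaling lowers. The log2 fold change of rank 49 was -0.52 ± 0.13 (adjusted p = 0.0304) with all libraries and -0.61 (adjusted p = 0.00538) without the 3. At 14 weeks rank 49 averaged 1059 ± 124 CPM against 1176 ± 166 CPM at 5 weeks, a log2 fold change of -0.15 ± 0.13 that did not pass (adjusted p = 0.595). Rank 3 had 3893, 2209, 2547, 3114 and 3335 CPM at 10 weeks, against 5658, 3472, 4863, 4723 and 4916 CPM at 5 weeks. Its ages overlapped through 10-week replicate 1 and 5-week replicate 2, and its log2 fold change was -0.62 ± 0.17 (adjusted p = 0.0434) with all libraries, -0.64 (adjusted p = 0.0339) without the 3, and without a filter on low counts its adjusted p was 0.0535.

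Single libraries moved the calls between 10 and 5 weeks. The ranges of adjusted p over the libraries whose absence ended a call were 0.0652 to 0.0781 for rank 52 (5-week replicate 4 or 10-week replicates 2, 3 or 4) and 0.0551 to 0.0578 for rank 59 (10-week replicates 2, 3 or 4). They were 0.0679 to 0.0857 for rank 49 (5-week replicates 3 or 4 or 10-week replicates 1, 2 or 3) and 0.0524 to 0.107 for rank 61 (5-week replicates 1, 3 or 4 or 10-week replicates 1, 2 or 3). For rank 99 the range was 0.0597 to 0.100 (5-week replicates 1, 4 or 5 or 10-week replicates 1, 2, 3 or 4). Rank 55 was lost without 5-week replicates 1, 3, 4 or 5, 7-week replicate 2, 10-week replicates 1, 2, 3 or 4 or 14-week replicate 1 (0.0510 to 0.114). Rank 3 was lost without 5-week replicates 1, 3 or 4, 7-week replicates 2, 4 or 5, 10-week replicates 2, 3 or 4 or 14-week replicates 1, 3 or 5 (0.0503 to 0.125). In these calls 10-week replicate 5 was the 10-week library nearest to 5 weeks in several genes: it was the highest of its age for ranks 49 and 59 and the lowest for ranks 5, 52, 55, 61 and 99. The count of 8 called genes became 4, 5 or 2 when replicate 1, 3 or 4 of 5 weeks was left out. It became 4, 1, 1, 3 or 13 on leaving out replicate 1, 2, 3, 4 or 5 of 10 weeks, and 21 on leaving out replicate 3 of 7 weeks. With the 3 libraries of lowest rho left out it was 14, 2 higher and 12 lower, against 11.05% of all tested genes, and 5 of the 14 were among the 8.

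Few of the 100 genes were called between neighbouring ages. Of all tested genes, few were called between 7 and 5 or between 14 and 10 weeks. Between 10 and 7 weeks 2.75% were called, against 2.48% between 14 and 5 weeks. Between 7 and 5 weeks edgeR called 0 of the 100 genes, against 0.0308% of all tested genes (0.0154% as higher and 0.0154% as lower). The unadjusted p was under 0.05 for 15 of the 100, against 11.9% of all tested genes. Of the 100, limma-voom called 0 and DESeq2 called 1, against 0.0719% and 1.55% of all tested genes. Without 7-week replicate 3 edgeR called 4, in a fit for which the share of all tested genes is not given. No gene of the 100 had ages that did not overlap (0.298% of all tested genes lay wholly above and 1.3% wholly below). Between 10 and 7 weeks the 1 gene called, as higher, was rank 5 (2.75% of all tested genes were called, 1.14% as higher and 1.61% as lower). Without 5-week replicate 5, 2 of the 100 were called, again with no share of all tested genes given. Rank 5's values are given above, and its log2 fold change here was 0.59 ± 0.16 (adjusted p = 0.0475 by edgeR) with all libraries and 0.56 (adjusted p = 0.0553) without the 3. Leaving out 5-week replicates 1, 2, 3 or 4, 7-week replicates 1, 2, 3 or 4, 10-week replicates 1, 2, 3 or 4 or 14-week replicates 1, 3 or 5 also ended this call, with adjusted p of 0.0542 to 0.131. All 10-week libraries lay below all 7-week libraries for ranks 49 and 59 (3.19% of all tested genes) and above for 0 of the 100 (3.36%). Between 14 and 10 weeks edgeR called 0 of the 100, against 0.0976% of all tested genes. Here 4 of the 100 passed at an unadjusted p under 0.05, against 6.08% of all tested genes, limma-voom called 0 and DESeq2 called 1, against 0% and 0.483%. All 14-week libraries lay above all 10-week libraries for rank 39 (1.65% of all tested genes) and below for ranks 28 and 60 (0.965%).

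Between 14 and 7 weeks edgeR called 0 of the 100 genes, against 2.49% of all tested genes. At an unadjusted p under 0.05, 9 of the 100 passed against 17.5% of all tested genes, limma-voom called 0 and DESeq2 called 2, against 2.70% and 5.47%. The median size of the log2 fold change was 0.09 over the 100 genes, 0.18 over all tested genes and 0.11 over the next 900 genes. All 14-week libraries lay below all 7-week libraries for ranks 28, 69 and 82 (1.75% of all tested genes) and above for 0 of the 100 (3.39%). Without the 3 libraries 6 of the 100 genes were called, 3 as higher and 3 as lower, with 9.78% of all tested genes. The count was 2 without 7-week replicate 3 and 1 without 10-week replicate 5, with no share of all tested genes given for these fits.

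The F-test over the 4 ages called 8 of the 100 genes, against 7.19% of all tested genes: ranks 28, 5, 60, 69, 59, 4, 99 and 82. Adjusted p ran from 0.0136 for rank 28 to 0.0489 for rank 82. Without the 3 libraries the adjusted p was 0.0897 for rank 82 and 0.105 for rank 99, and the other 6 passed. A slope over age in weeks was called for 7 of the 100 genes, against 5.04% of all tested genes, 2 upward (2.03% of all tested) and 5 downward (3.01%). On the log2 scale per week, the slopes were -0.11 ± 0.02 for rank 28 (adjusted p = 0.00986 by edgeR), -0.08 ± 0.02 for rank 69 (adjusted p = 0.0136), -0.08 ± 0.02 for rank 82 (adjusted p = 0.0220) and -0.07 ± 0.02 for rank 4 (adjusted p = 0.0220). Rank 98, with -0.03 ± 0.01 (adjusted p = 0.0496), was called in this test alone. The upward slopes were 0.09 ± 0.02 for rank 99 (adjusted p = 0.0316) and 0.07 ± 0.02 for rank 5 (adjusted p = 0.0367), and without the 3 libraries they had adjusted p of 0.0653 and 0.0946.

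These counts too moved with single libraries, for which the share of all tested genes called is not given. Over 4 ages 18 of the 100 genes were called without the 3 libraries, against 15.1% of all tested genes, and a slope was called for 10, against 8.10%. The F-test called 5, 5 or 2 genes when replicate 1, 2 or 4 of 5 weeks was left out, and 19 when it was replicate 3 of 7 weeks. It called 3, 4, 4 or 5 on leaving out replicate 1, 2, 3 or 4 of 10 weeks, and 2, 3, 2 or 5 for replicate 1, 2, 3 or 4 of 14 weeks. The slope was called for 4 or 11 genes when replicate 4 or 5 of 5 weeks was left out, for 11 when it was replicate 3 of 7 weeks, and for 2 or 3 when it was replicate 1 or 4 of 14 weeks. The F-test calls of ranks 28 and 5 and the slopes of ranks 28 and 69 held without each library in turn. The other F-test calls were lost without any of 5 single libraries for rank 60 (0.0507 to 0.0785), 6 for rank 69 (0.0518 to 0.0677), 9 for rank 59 (0.0512 to 0.0720), 10 for rank 4 (0.0529 to 0.0743), 14 for rank 99 (0.0537 to 0.0981) and 16 for rank 82 (0.0533 to 0.103), with adjusted p in brackets. Slopes of ranks 4 and 82 were lost without 14-week replicates 1 or 4 (adjusted p of 0.0506 to 0.0553 and 0.0512 to 0.0536), that of rank 99 without 5-week replicates 1 or 4 or 14-week replicates 1, 2 or 3 (0.0524 to 0.0654), and that of rank 5 without 5-week replicates 1, 2, 3 or 4, 7-week replicates 2 or 4 or 14-week replicates 1, 4 or 5 (0.0505 to 0.0803).

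Rank 98 had 871, 862, 771, 844 and 769 CPM at 5 weeks, 694, 697, 774, 702 and 684 CPM at 7 weeks, 674, 687, 619, 628 and 718 CPM at 10 weeks, and 671, 662, 690.0, 621 and 679 CPM at 14 weeks. In CPM, all libraries of 14 weeks and all of 10 weeks lay below all of 5 weeks. The lowest of 5 weeks was replicate 5 with 769 CPM, which the test's scaling lowers, so the ages may overlap on that scale. In CPM, 7-week replicate 3 was the only 7-week library to reach the 5-week range. Its log2 fold change without the 3 libraries at 14 against 5 weeks was -0.37 (adjusted p = 0.00755 by edgeR), against -0.31 (adjusted p = 0.0600) with all 20. Leaving out any 1 library other than 5-week replicate 5 or 7-week replicates 3 or 5 ended the call of its slope (adjusted p of 0.0540 to 0.0987).

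Read by the order of their 4 means, 4 of the 100 genes had a higher mean at each older age and 12 a lower one, against 4.83% and 5.53% of all tested genes. The highest mean occurred at 5 weeks for 40 of the 100 genes, while 23 peaked at 7 weeks, 21 at 10 weeks and 16 at 14 weeks. Of all tested genes, 34.0%, 18.5%, 24.0% and 23.5% were highest at 5, 7, 10 and 14 weeks. Leaving the 3 libraries out, 19 of the 100 had a higher mean at each older age and 13 a lower one, and 42, 7, 21 and 30 genes were highest at 5, 7, 10 and 14 weeks. The shares of all tested genes without the 3 libraries are not given, so these counts cannot be read as a trait of the 100.

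Most of the 100 genes had a CV under 25%. The CV over 20 libraries had a median of 18.5% over the 100 genes, 16.6% over the next 900 genes and 21.4% over all tested genes. It was under 10% for 7 of the 100 genes, from 10% to 25% for 76 and higher for 17. The steadiest were rank 39 with 7.81%, rank 96 with 8.14% and rank 19 with 8.45%. Rank 39 had 1276, 1266, 1311, 1023 and 1245 CPM at 5 weeks, 1084, 1029, 1294, 1144 and 1089 CPM at 7 weeks, 1122, 1038, 1114, 1124 and 1107 CPM at 10 weeks, and 1208, 1181, 1179.7, 1147 and 1267 CPM at 14 weeks. No pair of ages passed edgeR's test for rank 39 with all 20 libraries. It was called without the 3, as lower at 10 than at 5 weeks with a log2 fold change of -0.24 (adjusted p = 0.0288 by edgeR) and over 4 ages (adjusted p = 0.0467). Within an age the median CV was 16.8%, 21.4%, 9.83% and 12.1% at 5, 7, 10 and 14 weeks, and without the 3 libraries it was 11.2% at 5 weeks and 10.6% at 7 weeks. Those libraries were picked for their low rho with the others, so a smaller spread without them was likely from the start. It left 3 libraries at 5 weeks and 4 at 7 weeks. The source of the larger spread at the 2 younger ages was not tested.

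The largest CV, 280.4% for rank 94, came from 2 libraries. This gene had 21.9, 32.4, 107, 8487 and 279 CPM at 5 weeks, 94.6, 4237, 83.6, 160.2 and 87.3 CPM at 7 weeks, 124, 105.3, 107, 169 and 120.0 CPM at 10 weeks, and 43.5, 171, 22.0, 32.3 and 116 CPM at 14 weeks. It stood at 8487 CPM in 5-week replicate 4 and 4237 CPM in 7-week replicate 2, where it was the second gene of the library, and at 21.9 to 279 CPM with a median of 106 in the other 18. Those 2 libraries gave 87.2% of its summed CPM, and by median CPM it stood at place 2181. It is among the 100 through these 2 libraries. No pair of ages passed edgeR's test for it with all libraries. Without the 3 libraries of lowest rho, which include 5-week replicate 4 but not 7-week replicate 2, it was called lower at 14 than at 7 weeks with a log2 fold change of -3.95 (adjusted p = 0.0411), where 7-week replicate 2 had 4237 CPM and the other 3 libraries of 7 weeks 87.3 to 160.2 CPM.

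Rank 81, with the next largest CV at 43.3%, had 893, 871, 1003, 1048 and 863 CPM at 5 weeks, 1177, 1169.9, 1652, 719 and 344 CPM at 7 weeks, 884, 637, 507, 469 and 901 CPM at 10 weeks, and 725, 196, 1060.4, 259 and 751 CPM at 14 weeks. Low and high libraries occurred together at 7 and 14 weeks, and no pair of ages passed the test. Rank 89, with a CV of 34.0%, ran from 446 to 1454 CPM, with its highest value in 5-week replicate 4. Rank 80 was low in a pair of the libraries that stood apart, with 133 CPM in 7-week replicate 3 and 286 CPM in 5-week replicate 5, against a median of 919 CPM over 20 libraries.

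**Figure D4:**
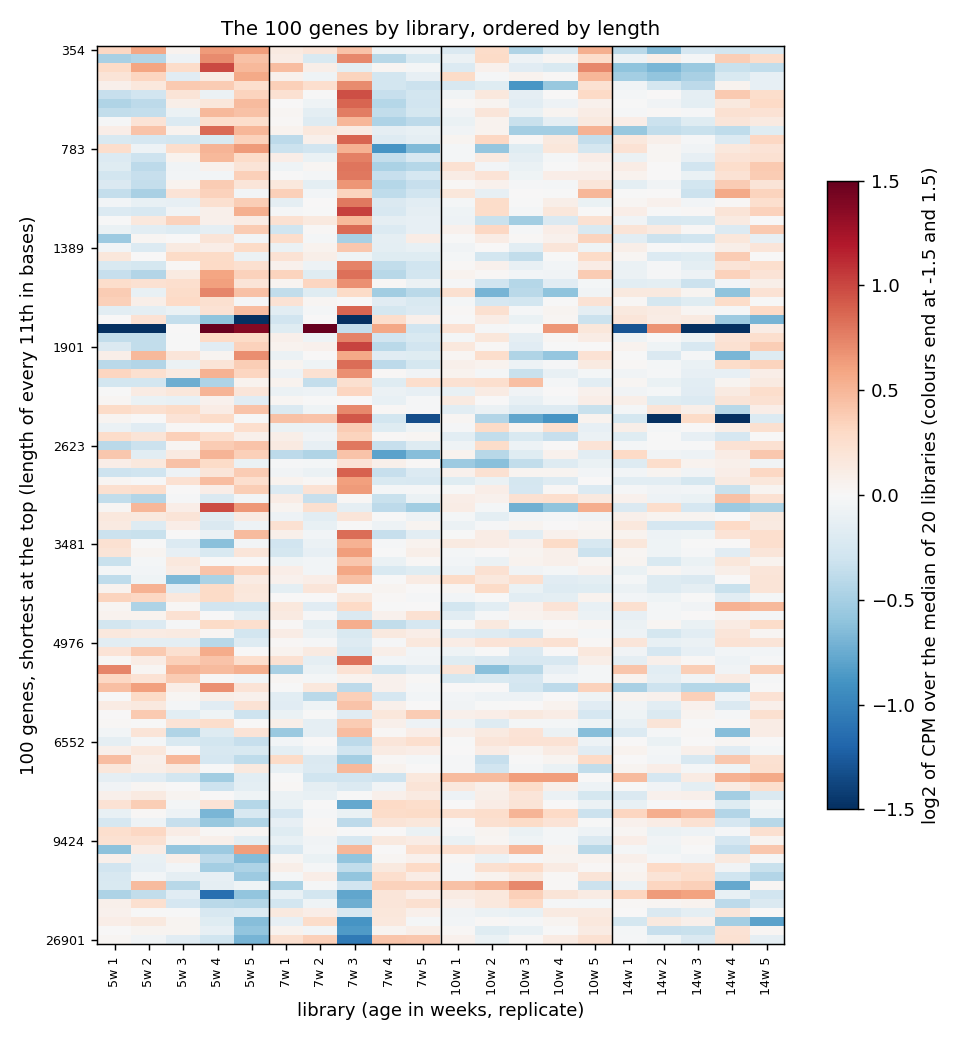
Each gene of the 100 (down, in order of gene length) in each library (across, by age), coloured by log2 of its CPM over its median of 20 libraries. Red is above and blue below the median, colours end at 1.5 on either side, and 7-week replicate 3 has 37 genes more than 1.5-fold above and 10 as far below, set against the median of its age's other 4.

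Single libraries departed from their age by gene length, among them the 3 of lowest rho. Set against the median of the other 4 libraries of the age, 7-week replicate 3 had 37 of the 100 genes more than 1.5-fold higher and 10 more than 1.5-fold lower. In 5-week replicate 5 this was 10 and 7 genes and in 5-week replicate 4 it was 6 and 3, while in the other 17 libraries 0 to 6 genes were higher and 0 to 7 lower. Across the 100 genes, Spearman's rho of this departure with length was -0.64 in 7-week replicate 3, -0.58 in 5-week replicate 4 and -0.58 in 5-week replicate 5, and from -0.45 to 0.73 in the other 17. These correlations run across genes of 1 library, which are not independent, and share the age's other libraries. The highest, 0.73 and 0.70, were those of 7-week replicates 4 and 5, for which the other 4 libraries of the age include 7-week replicate 3. For 7-week replicates 1 and 2 the other 4 include it too, and rho was -0.45 and -0.42. The source of this split within 7 weeks was not tested. The rho was 0.59 in 10-week replicate 3 and 0.45 in 14-week replicate 3, at ages that hold none of the 3 libraries.

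The same pattern shows in the shares. The shorter 50 of the 100 genes took 1.402 times the share of the longer 50 in 7-week replicate 3, 1.38 times in 5-week replicate 4 and 1.22 times in 5-week replicate 5, and 0.844 to 1.08 times in the other 17 libraries. By age, the shorter 50 took 7.40% ± 1.09, 6.80% ± 1.45, 6.43% ± 0.413 and 6.52% ± 0.494 at 5, 7, 10 and 14 weeks (SD, n = 5 each), and at the same ages the longer 50 took 6.72% ± 0.215, 6.53% ± 0.198, 6.73% ± 0.124 and 6.63% ± 0.274. In the other 17 libraries the shorter 50 took 6.67% at 5 weeks and 6.19% at 7 weeks. In 7-week replicates 1, 2, 4 and 5 they took 1.04, 1.08, 0.851 and 0.844 times the share of the longer 50. In 5-week replicate 4 rank 94, with 1813 bases 1 of the shorter 50, took 0.849% of counts by itself. RNA quality values were not analysed here, and the part of length in the age comparisons was not tested.

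**Figure D5:**
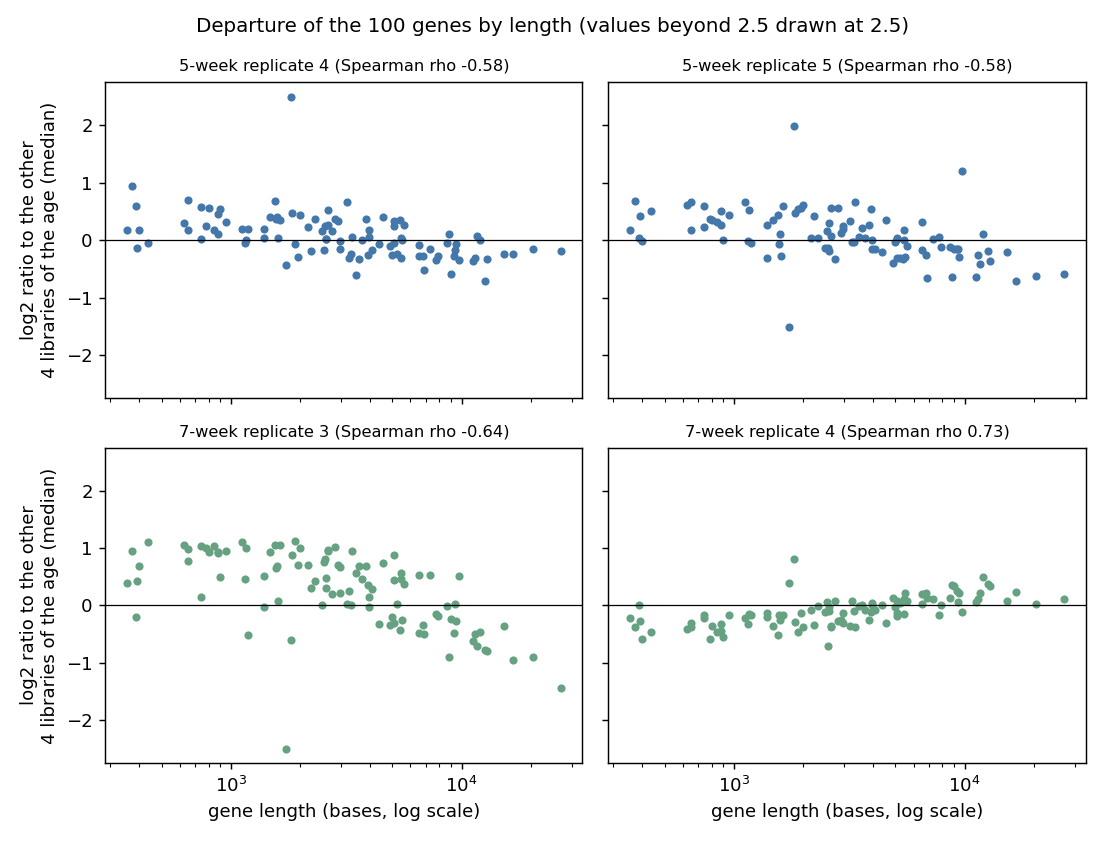
Log2 ratio of the CPM of each of the 100 genes to the median of the other 4 libraries of the age, against gene length in bases (log scale), with a panel each for 5-week replicate 4, 5-week replicate 5, 7-week replicate 3 and 7-week replicate 4. Points are genes, drawn at 2.5 where they lie beyond it. The ratio is lower for longer genes in the first 3 panels (rho of -0.58, -0.58 and -0.64) and higher for longer genes in 7-week replicate 4 (rho of 0.73).

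Pairs of shorter genes varied together between libraries of an age more than other pairs did. Over all 4950 pairs of the 100 genes, Pearson's r of their log2 deviations from the age mean over 20 libraries had a median of 0.16, with 0.47 for pairs of shorter genes, 0.14 for pairs of longer genes and -0.04 for pairs of a shorter and a longer gene. Over the other 17 libraries these medians were 0.08, 0.32, 0.02 and -0.02. The pairs share libraries and depth, and the values are a description. Without names, genes with near-identical copies or overlapping neighbours could not be picked out among the 100, and how the counting treated such reads and strand is not given in the sources used here, so their counts are uncertain to that extent.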

How the data were processed

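Total RNA of each brain sample was sequenced from TruSeq RNA v2 libraries, per the labels' protocols. The submitters' processing notes list CASAVA 1.8.2, STAR 2.4.1d as well as featureCounts 1.4.6-p4. The sources used here do not give the build, annotation, strand setting or handling of multiply mapped reads. The authors deposited raw read counts per gene, which every test used, and RPKM values of the same libraries. The deposited RPKM values were fitted as the count over a gene length and 1 of 25 totals taken in rotation. Of these totals, 20 matched the libraries, with a log deviation up to 4.2e-07, and 5 matched none. The fit used entries of higher count, and the agreement of every single value is not given. The RPKM values were therefore used only to solve gene lengths, which were had for 21816 genes and all 100 members, and TPM was computed from the counts and these lengths. Library totals were 12.004 to 30.7 M counts (M, mega).

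Tests used edgeR 4.0.16 in R 4.3.3 (TMM scaling, filterByExpr by age, robust glmQLFit, 1 mean per age over all 20 libraries, older over younger), with Benjamini-Hochberg adjustment over 19474 genes. The scripts were run on simulated counts drawn independently for each gene and library, and the outcome is not given here. Those counts held no libraries that depart by gene length, so they do not cover that trait of these data. Alternatives were limma 3.58.1 (voom), DESeq2 1.42.0, other scalings, no filter, 2 ages alone, libraries left out, and 100 genes of highest TPM. No pair of libraries of an age agreed within sampling noise (chi-square per degree of freedom of at least 8.67 in 40 pairs). The members and lists were chosen with earlier results of these data known. Genes named by identifier were the 2 with the largest positive and the 2 with the largest negative log2 fold change of 14 against 5 weeks among those called over 4 ages or between 14 and 5 weeks. Others described were ranks 1 to 10, every gene called in a pair of ages, and those of largest and smallest CV; ranks 60, 65, 69, 92, 80, 51 and 98 were also picked for length, a low value or a called slope after their values were seen. Lists of cell type markers and gene classes could not be used, as the identifiers carry no names.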

Additional observations from a re-analysis of the deposited data

Results flagged for a closer look

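Within an age, 1 library of 5 stood apart from the others in 16 of 124 sets of values looked at: the gap from the highest or lowest library to its neighbour, as a share of the whole range, exceeded the Dixon critical value of 0.71. Chance gives such a gap in about 5% of sets that are independent and chosen without regard to their values. These sets share libraries, and some of their genes, the one of largest CV among them, were picked for their spread. The count of 16 can therefore not be compared with that 5%, and the gaps are given as a description. In 7-week replicate 3 the share of the 100 genes was 15.8%, against 12.2% to 13.2% in the other 4 (gap 0.716), and the share of the first 10 genes was 3.75%, against 2.99% to 3.21% (gap 0.717). The same library was highest at 7 weeks for rank 1 with 8215 CPM, against 6026 to 6201 CPM in the other 4 (gap 0.920), for rank 6 with 4005 CPM, against 2825 to 3063 CPM in the other 4 (gap 0.799), for rank 7 with 3359 CPM, against 2274 to 2452 CPM in the other 4 (gap 0.836), for rank 97 with 1234 CPM, against 557 to 693 CPM in the other 4 (gap 0.799) and for rank 98 with 774 CPM, against 684 to 702 CPM in the other 4 (gap 0.797).

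Libraries of 5 weeks that stood apart were replicate 4, low for rank 39 with 1023 CPM, against 1245 to 1311 CPM in the other 4 (gap 0.772) and for rank 52 with 754 CPM, against 881 to 911 CPM in the other 4 (gap 0.811) and high for rank 94 with 8487 CPM, against 21.9 to 279 CPM in the other 4 (gap 0.970), and replicate 5, high for rank 97 with 892 CPM, against 599 to 642 CPM in the other 4 (gap 0.853). In 7-week replicate 2, rank 94 had 4237 CPM, against 83.6 to 160.2 CPM in the other 4 (gap 0.982). In 10-week replicate 5, rank 28 was high with 2095 CPM, against 1080.0 to 1327 CPM in the other 4 (gap 0.756) and rank 5 low with 2969.6 CPM, against 4132 to 4591 CPM in the other 4 (gap 0.717). In 10-week replicate 2, rank 39 was low with 1038 CPM, against 1107 to 1124 CPM in the other 4 (gap 0.809), and in 14-week replicate 4 rank 2 was low with 2438 CPM, against 3818 to 4305 CPM in the other 4 (gap 0.740).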

How the results depend on the processing

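Of 587 repeats of the 22 pairwise and slope calls among the 100 genes, 0 reversed direction, 444 stayed on their side of the threshold and 143 lost the call. The F-test calls, whose losses are given above, are not among these repeats. No paired analysis was possible because replicate numbers follow accession order and pair no libraries. Each gene had at least 417 counts in every library, so counting error was small beside the spread between libraries. DESeq2 called 12 of the 100 genes between 14 and 5 weeks, 17 between 10 and 5, 1 between 7 and 5, 3 between 10 and 7, 2 between 14 and 7, 1 between 14 and 10, 17 over 4 ages and 13 by slope, against 6.02%, 9.85%, 1.55%, 6.21%, 5.47%, 0.483%, 14.3% and 7.47% of all tested genes. Without the 3 libraries the counts were 9, 14, 1, 0, 6, 1, 18 and 10 in that order, and 4, 5, 0, 0, 0, 0, 6 and 5 of these were genes called with all 20, against 6.15%, 11.05%, 0.475%, 5.44%, 9.78%, 0.526%, 15.1% and 8.10% of all tested genes called. The call between 10 and 7 weeks became 0 with DESeq2's size factors, no filter, limma-voom, the 2 ages alone, or the 100 genes of highest TPM. Of all tested genes, 2.74% were called with size factors, 1.70% with no filter, 2.34% with limma-voom and 0.316% with the 2 ages alone. The main fit called 2.75%. Of those 100 by TPM, 2 were called between 10 and 5 weeks, against 5.97% of all tested genes. These 100 took 10.4%, 9.68%, 9.27% and 9.46% of counts at 5, 7, 10 and 14 weeks. Their first 10 took 2.18%, 1.81%, 1.801% and 1.75%, and the 10 highest of each 5-week library took 4.02%. For fits with 1 library left out at a time, the share of all tested genes called is not given. Counts in those fits ran from 1 to 12 for 14 against 5 weeks, 1 to 21 for 10 against 5, 0 to 4 for 7 against 5, 0 to 2 for 10 against 7, 0 to 2 for 14 against 7, 0 to 0 for 14 against 10, 2 to 19 over 4 ages and 2 to 11 by slope. Shares of the 100 genes ran over 13.7 to 14.3%, 12.7 to 13.6%, 13.1 to 13.3% and 12.9 to 13.3% at 5, 7, 10 and 14 weeks, those of the first 10 over 3.66 to 3.81%, 3.11 to 3.30%, 3.38 to 3.43% and 3.31 to 3.52%, and 48 to 56 genes were in the first 100 of every library. The cause of these shifts was not tested.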
